A study of Mus musculus with 6 samples.

Results

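The genes described here encode parts of the centromere and kinetochore. They are 37 listed genes, chosen by symbol for their function and for a summed count of 10 or more over the libraries, and all 37 of the 37 listed symbols met this in a table where 16904 of 24062 symbols did. They were measured by RNA sequencing of whole retinae at postnatal day 21 from C57BL/6 mice (C57BL/6N in the study's methods), in 3 Chx10-Cre Rb1/p107/Hells retinae (TKO) and 3 Chx10-Cre Rb1/p107 retinae (DKO). Both genotypes carried Chx10-Cre, which recombines in a mosaic of retinal progenitor cells, with floxed Rb1 and with p107 (Rbl1) lost in every cell of the animal. The TKO retinae also carried floxed Hells. The comparison therefore asks what loss of the chromatin remodeler HELLS adds to mosaic loss of Rb1 and loss of p107 in every cell. No wild-type retinae were analysed here, and each retina holds unrecombined cells beside the recombined ones. Values are listed in the order of replicate numbers 1 to 3.

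The kinetochore is the protein assembly that ties a chromosome to the spindle during mitosis. It is built on centromeric nucleosomes holding the histone variant CENP-A. The constitutive centromere-associated network (CCAN) sits on those nucleosomes, the MIS12 complex bridges it to the NDC80 complex, and NDC80 with the SKA complex grips the microtubule. In a normal retina at this age the neurons have left the cell cycle, and many kinetochore genes are transcribed mainly in G2 and M phase, on promoters that hold CHR and CCAAT elements.

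Library totals ran from 10343907 to 14203098 counts. Hells itself fell from normalized counts of 678, 523 and 395 in DKO to 60.8, 68.4 and 83.4 in TKO retinae (log2 fold change -2.91, SE 0.225, edgeR adjusted p = 0.00359), in the direction that the labels give. The log2 fold changes of the 12 dividing-cell markers described below ran from -3.21 to -1.04. Loss of the floxed allele and fewer dividing cells therefore cannot be told apart in the Hells counts. Rb1 stood at 814, 746 and 682 in TKO against 617, 583 and 572 in DKO retinae (log2 fold change 0.34, edgeR adjusted p = 0.0388), a pass that ended with total-count scaling (0.18, adjusted p = 0.176) and without any 1 of 5 retinae (adjusted p 0.0747 to 0.129). Rbl1 stood at 27.5, 20.0 and 13.5 against 15.1, 16.6 and 24.2 (0.13, adjusted p = 0.839, with the sign turned under total-count scaling). Normalized counts are counts scaled to a common library size, with TMM factors. Markers of some other cell types moved with genotype as well. The summed normalized count of 8 rod markers was 327414 to 666385 in TKO against 112019 to 213353 in DKO retinae, with 8 of 8 passing higher, and that of 8 microglia markers was 1247 to 2280 against 3036 to 4367, with 6 of 8 passing lower. For 12 dividing-cell markers, among them Mki67, Top2a, Ccnb1, Pcna and Mcm2, the sums were 2680 to 5997 against 11059 to 19928, with 12 of 12 passing lower. Retinal pigment epithelium markers summed to 7637 to 10244 against 4564 to 6073, with 2 of 8 passing higher. Lens markers, 4 of 8 of which passed higher, summed to 3380 in TKO retina 2, to 507 and 596 in the other TKO retinae and to 104 to 105 in the DKO retinae. Sums of amacrine, bipolar and endothelial markers overlapped between genotypes, with 0, 1 and 1 of 8 passing higher and 0 lower in each. Muller glia sums were 73040 to 78644 in TKO against 64299 to 70858 in DKO retinae, with 2 of 8 passing higher and 2 lower. Fewer dividing cells and less RNA per cell cannot be told apart in whole retinae. By Xist and Ddx3y, TKO retina 1 and DKO retinae 1 and 2 were male and the other 3 were female.

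Kinetochore genes were lower in TKO retinae in most cases. Of the 37 genes, 22 were called lower and 0 higher, where a call needs 3 things: an adjusted p up to 0.05 (edgeR quasi-likelihood test, adjusted over all 16904 genes), a log2 fold change of 1 or more in either direction, and 10 or more normalized counts on average. Of all genes tested, 4.38% were called lower and 1.97% higher. With the adjusted p alone, 29 of the 37 passed lower, beside 9.2% of all genes, and 0 passed higher, beside 7.35%. The median log2 fold change of the 37 genes was -1.47, and that of all genes tested was -0.011. Log2 fold changes were below 0 in 35 of the 37 genes, beside 51.2% of all genes. The log2 fold changes spread from -2.93 (Ska1) to 0.10 (Zwint). They ran from -2.93 to -1.19 in the 22 called genes and from -0.94 to 0.10 in the 15 others. The fold criterion of the call itself keeps these ranges apart among genes that pass the adjusted p. In 31 genes every TKO retina lay below every DKO retina, which 20.6% of all genes showed. The groups overlapped in 5 genes (Cenpc1, Cenpt, Spc25, Zw10 and Spag5), and in Zwint every TKO retina lay above every DKO retina, by under 1 normalized count at the nearest pair. The same 22 genes were called by DESeq2.

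**Figure D1:**
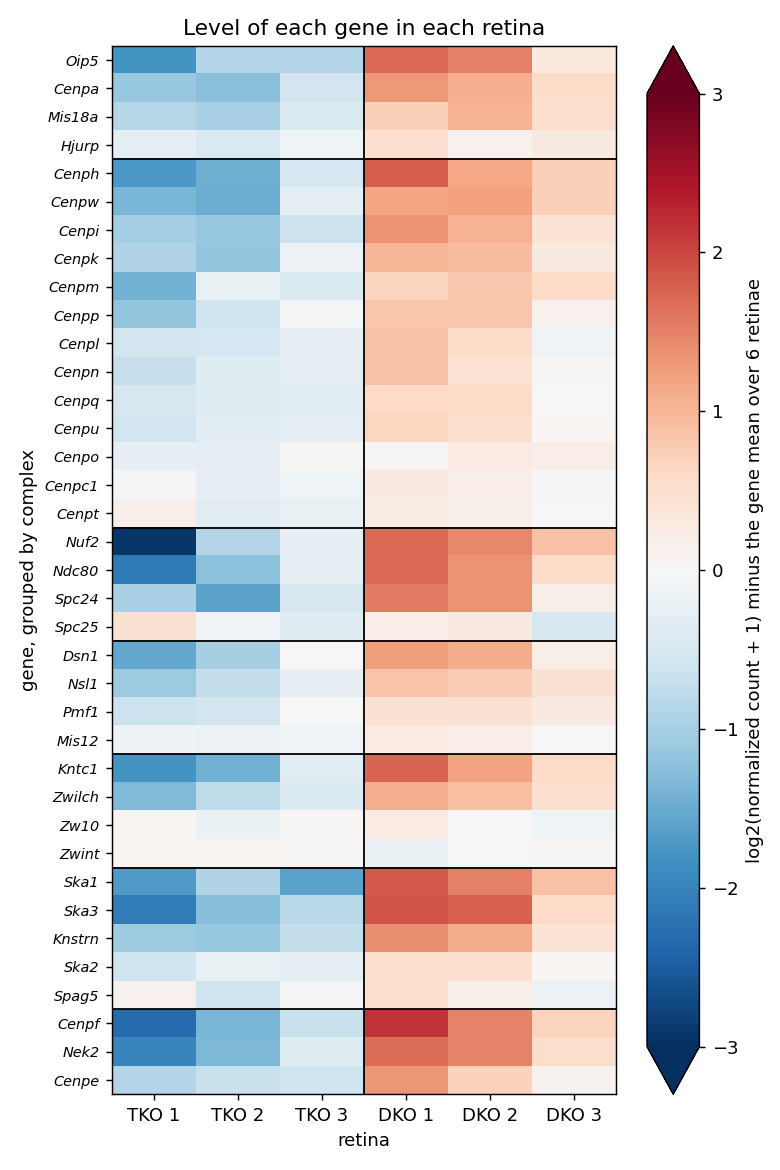
Level of each of the 37 genes (vertical axis, grouped by complex) in each of the 6 retinae (horizontal axis), as log2(normalized count + 1) minus the gene's mean over all retinae. In the 22 called genes DKO retina 3 is always the lowest DKO retina and TKO retina 3 is the highest TKO retina in 19 of them, while the rows of Spc25 and Zw10 do not divide by genotype.

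The calls depended on single retinae. Without TKO retina 2, 9 of the 37 genes were called lower, and without DKO retina 1 or without DKO retina 2, 12 were, as the count over all genes fell from 741 to 312, 360 and 350. The genes called in every fit that left out 1 retina numbered 8, namely Cenpa, Mis18a, Cenpi, Zwilch, Ska1, Ska3, Knstrn and Cenpf, and 34 of the 37 log2 fold changes stayed below 0 in all 6 of those fits. The share over all genes was not worked out for these counts over all 6 fits.

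**Figure D2:**
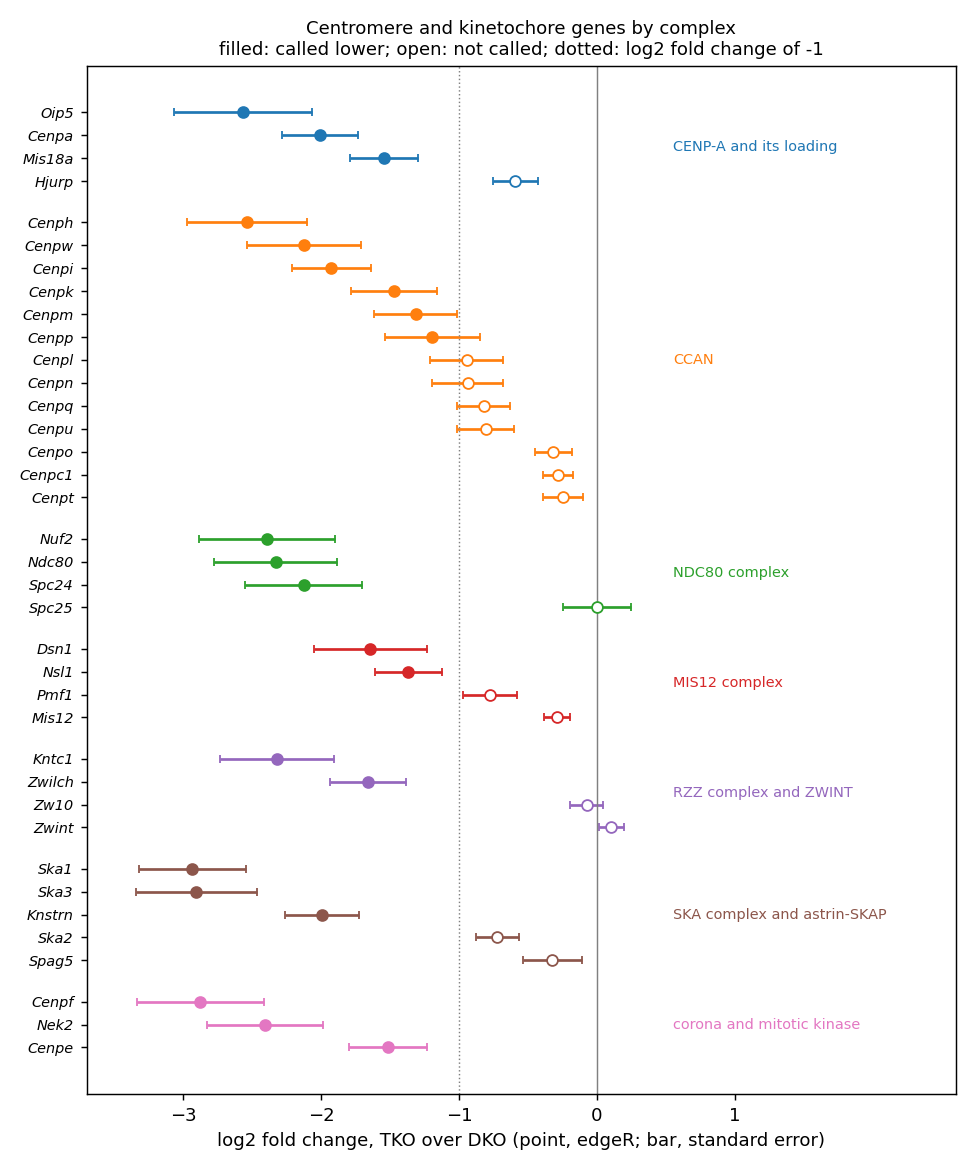
Log2 fold change of TKO over DKO retinae (point) with its standard error (bar) for the 37 genes, grouped by complex, with filled points for the 22 called genes and open points for the other 15. Each complex except the corona and mitotic kinase group holds both kinds.

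The promoters of some of these genes are shown to set called genes beside uncalled ones. Cenpa, Cenpf, Ndc80 and Cenpm were called lower, and Spc25 and Zwint were not. Each sequence runs 5′ to 3′ on the gene's strand from 250 bases before to 50 after the start, from RefSeq on GRCm38.p6. Cenpa is at chr5:30666636-30666935 (+), Cenpf at chr1:189688037-189688336 (-), Ndc80 at chr17:71526808-71527107 (-), Cenpm at chr15:82244287-82244586 (-), Spc25 at chr2:69206164-69206463 (-) and Zwint at chr10:72654596-72654895 (+). Capitals mark, on either strand, the CHR letters (TTTGAA or TTCGAA), the CCAAT box (CCAAT) and the E2F letters (TTTCCCGC, TTTCGCGC, TTTGGCGC or TTTGCCGC), so that ATTGG is a CCAAT box and TTCAAA a CHR read on the other strand.
Cenpa: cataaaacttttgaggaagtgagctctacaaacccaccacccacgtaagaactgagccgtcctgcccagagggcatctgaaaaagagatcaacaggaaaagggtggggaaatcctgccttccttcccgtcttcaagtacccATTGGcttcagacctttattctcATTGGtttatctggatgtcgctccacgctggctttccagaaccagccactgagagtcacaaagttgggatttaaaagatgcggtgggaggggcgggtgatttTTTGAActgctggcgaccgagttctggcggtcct
Cenpf: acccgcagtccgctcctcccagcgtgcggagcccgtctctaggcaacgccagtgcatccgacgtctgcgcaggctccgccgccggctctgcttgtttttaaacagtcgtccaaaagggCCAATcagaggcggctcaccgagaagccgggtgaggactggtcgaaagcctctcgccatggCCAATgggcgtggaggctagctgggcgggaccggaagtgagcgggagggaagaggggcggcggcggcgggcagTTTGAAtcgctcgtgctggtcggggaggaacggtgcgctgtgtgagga
Ndc80: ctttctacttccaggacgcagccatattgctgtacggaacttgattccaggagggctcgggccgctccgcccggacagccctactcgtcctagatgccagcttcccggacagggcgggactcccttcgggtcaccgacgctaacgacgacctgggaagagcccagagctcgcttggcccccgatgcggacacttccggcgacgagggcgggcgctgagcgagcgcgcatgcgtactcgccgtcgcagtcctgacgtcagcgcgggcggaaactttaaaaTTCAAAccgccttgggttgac
Cenpm: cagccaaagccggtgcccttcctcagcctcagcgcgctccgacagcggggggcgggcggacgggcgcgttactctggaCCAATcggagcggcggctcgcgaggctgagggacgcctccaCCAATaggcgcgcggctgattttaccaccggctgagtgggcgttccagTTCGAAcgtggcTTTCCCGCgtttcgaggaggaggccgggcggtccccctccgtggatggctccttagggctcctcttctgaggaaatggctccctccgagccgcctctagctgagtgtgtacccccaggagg
Spc25: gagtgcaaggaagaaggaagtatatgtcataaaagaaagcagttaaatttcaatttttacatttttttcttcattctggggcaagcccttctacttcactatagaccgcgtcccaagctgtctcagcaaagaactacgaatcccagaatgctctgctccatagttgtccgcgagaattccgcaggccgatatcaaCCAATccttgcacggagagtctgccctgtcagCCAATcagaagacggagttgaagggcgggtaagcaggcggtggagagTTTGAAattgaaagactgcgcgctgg
Zwint: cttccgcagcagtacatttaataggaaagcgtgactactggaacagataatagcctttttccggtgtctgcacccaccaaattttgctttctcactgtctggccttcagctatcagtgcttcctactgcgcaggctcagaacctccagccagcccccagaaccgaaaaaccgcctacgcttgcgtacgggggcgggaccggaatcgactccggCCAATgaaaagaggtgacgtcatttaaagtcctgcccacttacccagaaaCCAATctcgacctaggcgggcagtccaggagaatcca
The CHR of Cenpa lay 17 bases, that of Cenpf 3 bases, that of Ndc80 30 bases and that of Spc25 25 bases from the start on the transcribed side, while that of Cenpm lay 83 bases upstream, and the window of Zwint held CCAAT boxes and no CHR letters. Of the 37 genes, 33 had a promoter entry, and Spc24, Nsl1, Ska1 and Zwilch were not matched. CHR letters occurred in 16 of the 33 genes (48.5%), beside 21.7% of all 27025 genes with an entry and 19.2% of all 32851 promoters of this length. CCAAT letters occurred in 23 of the 33 (69.7%), beside 41.1% of genes and 37.4% of promoters, and both together in 12 (36.4%), beside 8.61% and 7.53%. E2F letters occurred in 4 (12.1%), beside 2.61% and 2.27%. CHR was found in 9 of 18 called and 7 of 15 uncalled genes, CCAAT in 11 of 18 and 12 of 15, and E2F in 3 of 18 and 1 of 15, and these differences were not tested. Spc25 thus carried a CHR and a pair of CCAAT boxes as Cenpa and Cenpf did. These are matches of letters, not sites of binding.

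The genes that make and place the CENP-A nucleosome were lower in TKO retinae, 3 of 4 called and 4 of 4 passing. Cenpa, which encodes the centromeric histone H3 variant, had normalized counts of 32.1, 29.5 and 47.9 in TKO and 179, 154 and 106 in DKO retinae. Its means were 36.5 ± 9.94 and 146 ± 36.9 (SD, n = 3 each), and the log2 fold change was -2.01 (SE 0.274, edgeR adjusted p = 0.00691). Every TKO retina lay far under the lowest DKO retina. Oip5 (MIS18B), a subunit of the complex that primes centromeres for new CENP-A, fell the most of this group, from 48.9, 42.9 and 18.1 to 3.44, 7.37 and 7.36 (log2 fold change -2.57, SE 0.500, edgeR adjusted p = 0.0135). The lowest DKO value of Oip5, in retina 3, was still above all TKO values, and its TKO counts of 3, 7 and 6 reads were few. Its partner Mis18a fell by 1.54 on the log2 scale (SE 0.244, edgeR adjusted p = 0.00821). Hjurp, the chaperone that carries CENP-A to the centromere, had the largest counts of the group and the smallest difference. Its normalized counts were 123, 108 and 137 in TKO and 212, 163 and 180.5 in DKO retinae. The log2 fold change was -0.59 (SE 0.162, edgeR adjusted p = 0.041), which passed the adjusted p and not the fold criterion. Leaving out any 1 of 5 retinae ended that pass, with an adjusted p of up to 0.144.

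The CCAN, the inner kinetochore, held genes at both ends of the range. Of its 13 genes, 6 were called lower, 10 passed lower and 3 did not pass, with a median log2 fold change of -0.94. All 4 genes of the CENP-H/I/K/M subcomplex were called, namely Cenph (-2.54), Cenpi (-1.93), Cenpk (-1.47) and Cenpm (-1.31). Both genes of the CENP-L/N pair, which reads the CENP-A nucleosome, passed under the fold criterion, at -0.94 (Cenpl) and -0.93 (Cenpn). Of the CENP-O/P/Q/U genes, Cenpp was called at -1.19 (edgeR adjusted p = 0.04995), Cenpq and Cenpu passed at -0.82 and -0.81, and Cenpo did not pass at -0.32 (adjusted p = 0.137). The call of Cenpp held in 2 of the 6 fits that left out 1 retina (edgeR adjusted p up to 0.16). It was lost in a fit with a sex term (edgeR adjusted p = 0.107). The histone-fold pair of CENP-T and CENP-W was unequal, with Cenpw at -2.12 (edgeR adjusted p = 0.0134) and Cenpt at -0.25 (adjusted p = 0.271).

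In single retinae, Cenph had the lowest log2 fold change of the CCAN. Its normalized counts were 6.88, 8.42 and 17.2 in TKO and 90.3, 56.9 and 41.4 in DKO retinae, with means of 10.8 ± 5.56 and 62.9 ± 25.0 (SD, n = 3 each). The highest TKO retina of Cenph was under the lowest DKO retina. Cenpc1, which encodes CENP-C, the scaffold that links CENP-A to the outer kinetochore, had the largest counts. They were 605, 522 and 571 in TKO and 755, 711 and 604 in DKO retinae, and the groups overlapped by TKO retina 1 and DKO retina 3 (log2 fold change -0.29, SE 0.108, edgeR adjusted p = 0.108). Cenpt, which recruits NDC80 by another route, overlapped too, at 297, 216 and 228 in TKO and 311, 298 and 271 in DKO retinae. Within the CCAN, then, the per-retina values of both genes that tie it to the outer kinetochore overlapped between genotypes. Exons of 13 of the 37 genes overlap another gene on the opposite strand, to the largest extent in Cenpu (26.7% of its exon bases, with Primpol) and Cenpo (19.0%, with Adcy3). The libraries were made with a stranded kit, and the strand setting of the counting was not given in the sources used here, so the values of Cenpu and Cenpo are less certain.

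The NDC80 complex, the main microtubule-binding unit, held 3 genes called lower and 1 whose means were nearly equal. Nuf2 had normalized counts of 16.1, 68.4 and 108 in TKO and 418, 351 and 237 in DKO retinae (log2 fold change -2.39, SE 0.495, edgeR adjusted p = 0.0165). Ndc80, its partner in the microtubule-binding head, stood at 20.6, 38.9 and 77.3 against 306, 239 and 139 (log2 fold change -2.33, SE 0.445, edgeR adjusted p = 0.013). Spc24, which with Spc25 forms the dimer that docks the complex on the inner kinetochore, stood at 21.8, 13.7 and 30.7 against 127, 111 and 49.2 (log2 fold change -2.12, SE 0.424, edgeR adjusted p = 0.0147). In all of these genes the TKO retinae were separate from the DKO retinae, and in each the call was lost without TKO retina 2, without DKO retina 1 or without DKO retina 2 (adjusted p up to 0.0683). Spc25, the obligate partner of Spc24 in that dimer, had 1325, 914 and 745 in TKO and 1117, 1173 and 687 in DKO retinae. Its means were 994 ± 298 and 993 ± 266 (SD, n = 3 each), with a log2 fold change of 0.0034 (SE 0.246, edgeR adjusted p = 0.993), and its sign turned with other scalings and with single retinae left out. The highest and the lowest but one of the 6 values were both TKO retinae. Spc25 made up 95.8%, 88.3% and 77.5% of the summed counts of the 4 NDC80 genes in TKO retinae and 56.8%, 62.6% and 61.8% in DKO retinae.

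The MIS12 complex, which joins the CCAN to NDC80, had 2 of 4 genes called and 3 passing. Dsn1, the subunit whose phosphorylation by Aurora B frees the complex to bind CENP-C, had normalized counts of 34.4, 50.5 and 102 in TKO and 243, 221 and 117 in DKO retinae. TKO retina 3 came close to DKO retina 3, and the log2 fold change was -1.64 (SE 0.408, edgeR adjusted p = 0.03). The call of Dsn1 held in 2 of the 6 fits that left out 1 retina (edgeR adjusted p up to 0.114). It was lost in a fit with a sex term (edgeR adjusted p = 0.0809). Nsl1 fell by 1.37 on the log2 scale (SE 0.244, edgeR adjusted p = 0.0109), and Pmf1 passed at -0.78 (SE 0.193, adjusted p = 0.03). Mis12, with the largest counts of the complex, stood at 489, 486 and 507 in TKO and 647, 625 and 538 in DKO retinae. The groups of Mis12 did not overlap, but the log2 fold change of -0.29 (SE 0.0966) did not pass (edgeR adjusted p = 0.0758).

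The RZZ complex and its partner ZWINT, which bring the checkpoint and dynein to unattached kinetochores, were divided evenly, with 2 of 4 genes called lower and 2 not passing. Kntc1, the ROD subunit, had 51.6, 65.3 and 145 in TKO and 609, 419 and 270.2 in DKO retinae (log2 fold change -2.32, SE 0.411, edgeR adjusted p = 0.0107), and Zwilch fell by 1.66 on the log2 scale (SE 0.276, adjusted p = 0.00909). Zw10, the remaining subunit, which also works in membrane traffic between the endoplasmic reticulum and the Golgi, overlapped between genotypes. It stood at 588, 493 and 578 in TKO and 668, 560.3 and 517 in DKO retinae (log2 fold change -0.07, SE 0.121, edgeR adjusted p = 0.712), with a sign that turned without TKO retina 2 or without DKO retina 1. Zwint, which binds the outer kinetochore scaffold and is also known in neurons as a partner of the synaptic protein SNAP25, had the largest counts of all 37 genes. Its values were 4437, 4451 and 4331 in TKO and 3676, 4289 and 4330.0 in DKO retinae. The log2 fold change was 0.10 (SE 0.0918, edgeR adjusted p = 0.464), and it was -0.053 with total-count scaling. DKO retina 1 alone was clearly under the rest. Zwint made up 42.8%, 46.4% and 41.8% of the summed counts of the 37 genes in TKO retinae and 23.5%, 29.3% and 36.8% in DKO retinae.

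**Figure D3:**
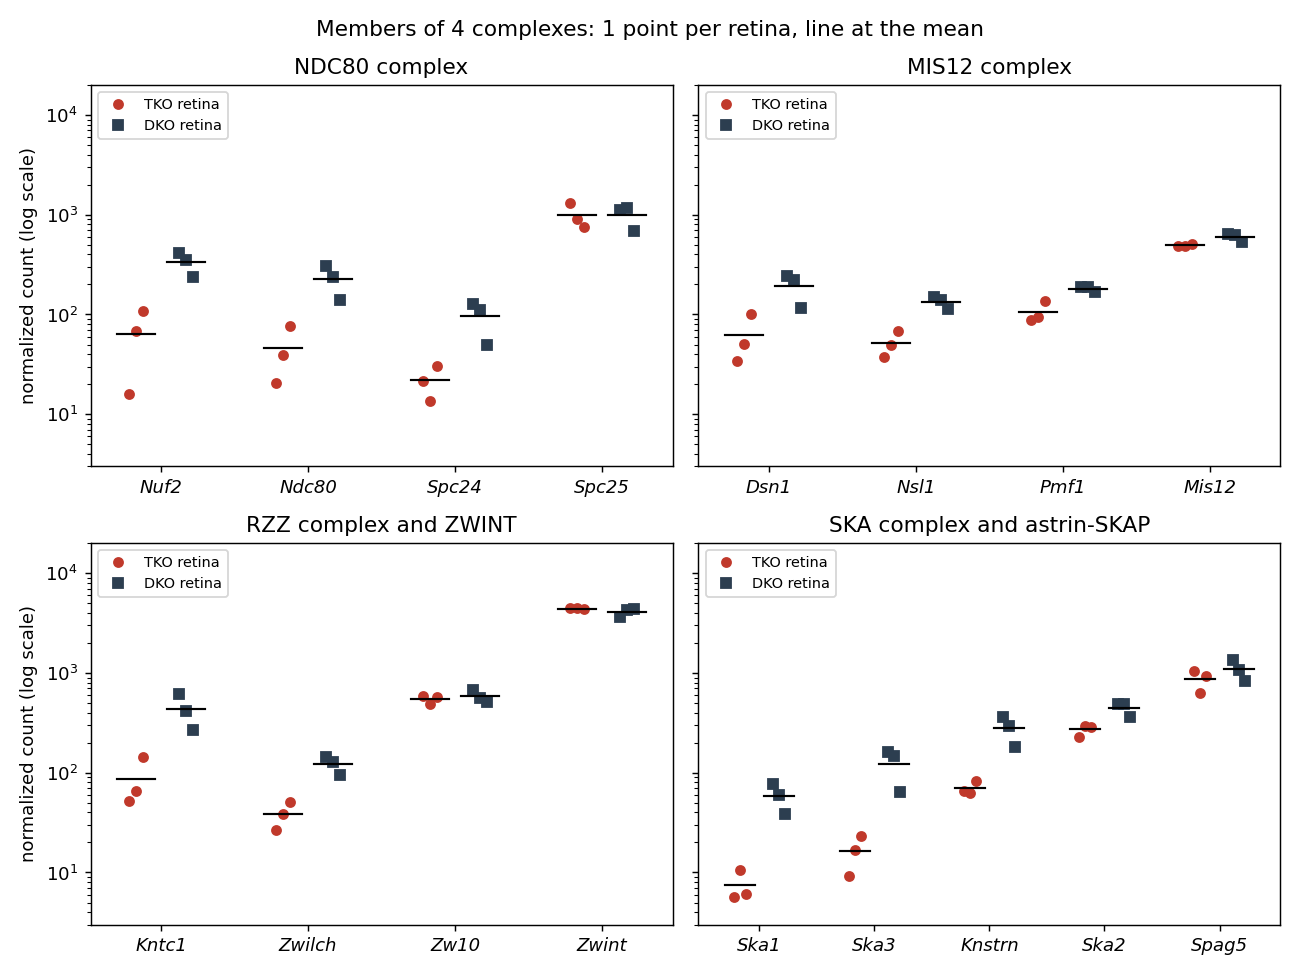
Normalized count (log axis) of each gene of the NDC80, MIS12, RZZ with ZWINT, and SKA with astrin-SKAP groups, with 1 point per retina and a line at the mean of each genotype. Within each panel the TKO points of the leftmost genes lie below all DKO points, and those of Spc25, Zw10 and Spag5 mix with them.

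The SKA complex, which follows microtubule ends, and the astrin-SKAP pair, which stabilizes end-on attachments, had 3 of 5 genes called and 4 passing. Ska1 had the lowest log2 fold change of all 37 genes. Its normalized counts were 5.73, 10.5 and 6.14 in TKO and 76.2, 60.4 and 38.9 in DKO retinae, with means of 7.46 ± 2.66 and 58.5 ± 18.8 (SD, n = 3 each) and a log2 fold change of -2.93 (SE 0.388, edgeR adjusted p = 0.00681). The TKO libraries held 5, 10 and 5 reads of Ska1. Ska3 was nearly as low at -2.90 (SE 0.439, edgeR adjusted p = 0.00752), whereas Ska2 passed at -0.72 (SE 0.157, adjusted p = 0.0192), which left the 3 subunits of 1 complex at unequal differences. Knstrn, which encodes SKAP, fell by 1.99 on the log2 scale (SE 0.266, edgeR adjusted p = 0.00687). Its partner Spag5 (astrin) stood at 1047, 633 and 923 in TKO and 1349, 1071 and 835 in DKO retinae, where TKO retinae 1 and 3 lay above DKO retina 3 (log2 fold change -0.32, SE 0.213, edgeR adjusted p = 0.326).

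The 3 genes of the fibrous corona and of the mitotic kinase NEK2 were all called lower. Cenpf, a large microtubule-binding protein that builds up in G2, had 40.1, 77.9 and 128 in TKO and 904, 571 and 320.3 in DKO retinae. The means were 81.9 ± 43.9 and 599 ± 293 (SD, n = 3 each), and the log2 fold change was -2.87 (SE 0.459, edgeR adjusted p = 0.00821). Cenpf separated the genotypes fully, although DKO retinae 1 and 3 differed widely among themselves. Cenpe, the kinesin that carries chromosomes to the spindle equator, had 119, 137 and 144 against 549.6, 356 and 237, and its log2 fold change of -1.51 (SE 0.282, edgeR adjusted p = 0.0122) was the smallest of the group. Nek2, which acts at centrosomes and kinetochores, fell by 2.41 on the log2 scale (SE 0.421, edgeR adjusted p = 0.0103). Without TKO retina 2 the adjusted p was 0.0546 for Cenpe and 0.0532 for Nek2.

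Kinetochore genes outside the 37 were counted in the same fit. Of 16 such genes, 3 were called lower, 7 passed lower and 0 passed higher, with a median log2 fold change of -0.39. The called genes included Casc5 (KNL1), the scaffold for checkpoint kinases, at -2.76, and Spdl1, the dynein adaptor, at -1.66. Clasp1, a microtubule-stabilizing protein with roles outside mitosis, was the highest of the list, at 3578, 3127 and 3010.3 in TKO and 2977, 2505 and 2732 in DKO retinae. Its groups did not overlap, and its log2 fold change of 0.24 did not pass (edgeR adjusted p = 0.135). Whether the share of calls differed between the 16 genes and the 37 was not tested.

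The spindle checkpoint holds anaphase until kinetochores are attached. A list of 11 genes, named checkpoint genes here, had 6 called lower and 8 passing lower, with a median log2 fold change of -1.75. The called genes of the list included Sgol1 (-2.85) and Sgol2 (-2.51), which belong to centromeric cohesion rather than to the checkpoint itself. Cdc20, the activator of the anaphase-promoting complex that the checkpoint inhibits, stood at 13.8, 36.8 and 78.5 in TKO and 401, 364 and 214 in DKO retinae (log2 fold change -2.93, SE 0.484, edgeR adjusted p = 0.00898). Bub1, the kinase that docks on KNL1, fell by 2.61 on the log2 scale (SE 0.483, edgeR adjusted p = 0.0119). At the other end, Mad2l1bp, which helps to silence the checkpoint, stood at 177, 136 and 124 in TKO and 115, 111 and 139.9 in DKO retinae, and the groups overlapped (log2 fold change 0.25, SE 0.184, edgeR adjusted p = 0.371). Leaving out TKO retina 2, DKO retina 1 or DKO retina 2 left 2 checkpoint genes called.

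The retinae of each genotype were graded in the same way across many of the 37 genes. DKO retina 3 was the lowest DKO retina in 34 of them and DKO retina 1 the highest in 29, while TKO retina 3 was the highest TKO retina in 27. The mean of log2(normalized count + 1), centred on each gene, was -0.99, -0.76 and -0.35 in TKO and 0.99, 0.82 and 0.29 in DKO retinae. Over the 12 dividing-cell markers the same quantity was -1.76, -1.12 and -0.37 against 1.41, 1.24 and 0.59, in the same order. The rod markers ran the other way apart from DKO retinae 1 and 2, which were nearly equal. They took 4.81%, 4.20% and 2.58% of library counts in TKO and 0.965%, 0.951% and 1.74% in DKO retinae. The part of the dividing-cell and rod markers in the kinetochore differences was not tested.

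Each genotype held both sexes, and the 22 called genes were below 0 within males and within females. Within males, where TKO retina 1 is the single TKO retina, 35 of the 37 genes were lower in TKO, and within females, where DKO retina 3 is the single DKO retina, 34 were. All 22 called genes differed more in males, as in Cenpf (log2 difference -4.20 in males and -1.64 in females), Nuf2 (-4.58 and -1.43) and Ska1 (-3.57 and -2.22). With 1 retina on 1 side of each comparison, sex and the single retina cannot be told apart. In a fit with a sex term 20 of the 22 genes were called, beside 660 genes called lower among all those tested. In that fit 21 of the 37 passed. The share over all genes was not worked out for these passes or for the counts within each sex.

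The most abundant of the 37 transcripts were among the uncalled genes. Levels were compared between genes as TPM, in which counts are divided by exon length and scaled to the same sum in every library. In DKO retinae Zwint had the highest mean level, 339 TPM, followed by Spc25 at 115, Mis12 at 73.9, Spag5 at 71.2 and Zw10 at 56.0 TPM, and none of these was called. Among the called genes the DKO level ran from 3.11 (Cenpw) to 23.6 TPM (Nek2), and 9 of the 15 uncalled genes lay above that. Median DKO levels were 13.02 TPM for called and 29.6 TPM for uncalled genes, and median TKO levels were 2.96 and 22.6 TPM. The called genes were chosen on these counts for a lower level in TKO retinae, so their lower TKO median follows in part from the calls. Of the 10 genes with the highest DKO level 1 was called, and of the 10 with the lowest 8 were. Across the 37 genes Spearman's rho between DKO level and log2 fold change was 0.47, a description over genes that share libraries and the DKO values themselves. TPM also carries the larger rod share of the TKO libraries.

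**Figure D4:**
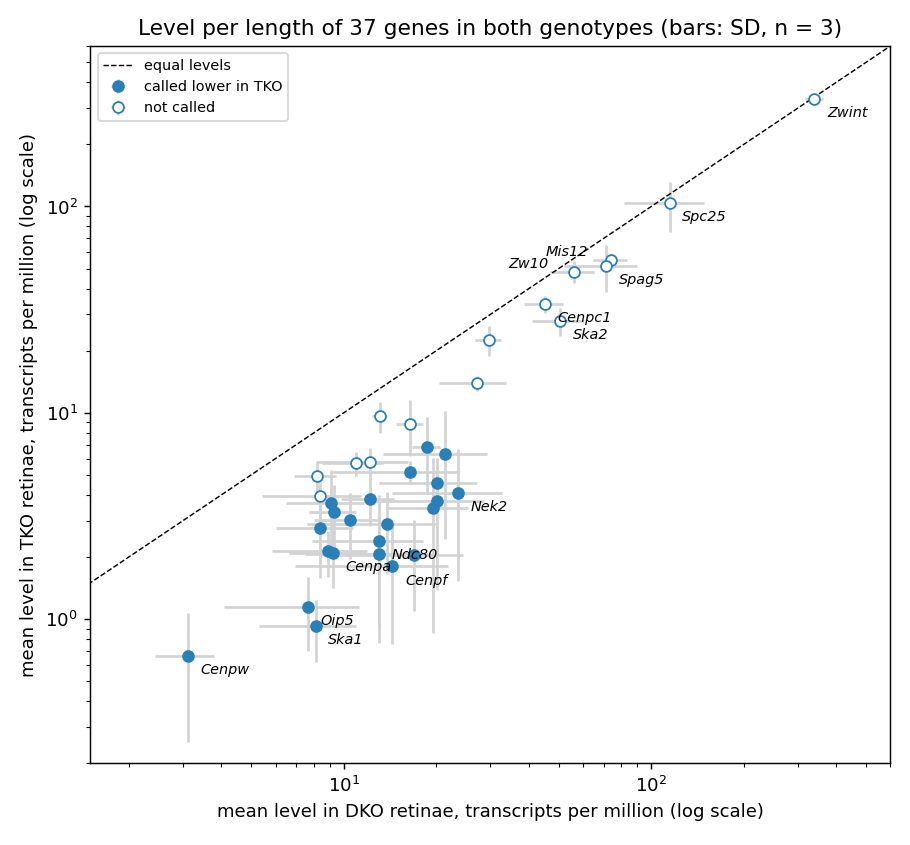
Mean level in TKO against mean level in DKO retinae in TPM (both axes log), with 1 point per gene, bars for SD (n = 3) and a dashed line at equal levels. The 22 called genes (filled) lie under the line at DKO levels up to 23.6 TPM, and Zwint and Spc25 lie close to it at 339 and 115 TPM.

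The sum over all 37 genes stood higher against the dividing-cell markers in TKO than in DKO retinae. The summed counts of the 37 genes were 3.86, 2.597 and 1.73 of the summed counts of the 12 markers in TKO and 0.786, 0.884 and 1.06 in DKO retinae. The means of 2.73 ± 1.07 and 0.911 ± 0.140 (SD, n = 3 each) gave a log2 difference of 1.58, and the groups did not overlap. The log2 difference was 1.21 with the S-phase markers alone and 2.17 with the G2 and M markers alone. Without Zwint, a choice made after seeing the data, the ratios were 2.21, 1.39 and 1.01 in TKO against 0.601, 0.625 and 0.671 in DKO retinae, a log2 difference of 1.28, so the genotypes remained separate. A split by the calls was also made after seeing the data, on sets chosen by the same counts. The called genes stood at 0.246, 0.239 and 0.227 in TKO against 0.268, 0.254 and 0.235 in DKO retinae, and the groups overlapped. Their log2 difference was -0.086, with -0.46 for the S-phase and 0.49 for the G2 and M markers alone. The uncalled genes had a log2 difference of 1.92, so with all 12 markers the higher ratio lay in them. All these ratios are given without a test, and the marker list was chosen with earlier results known.

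**Figure D5:**
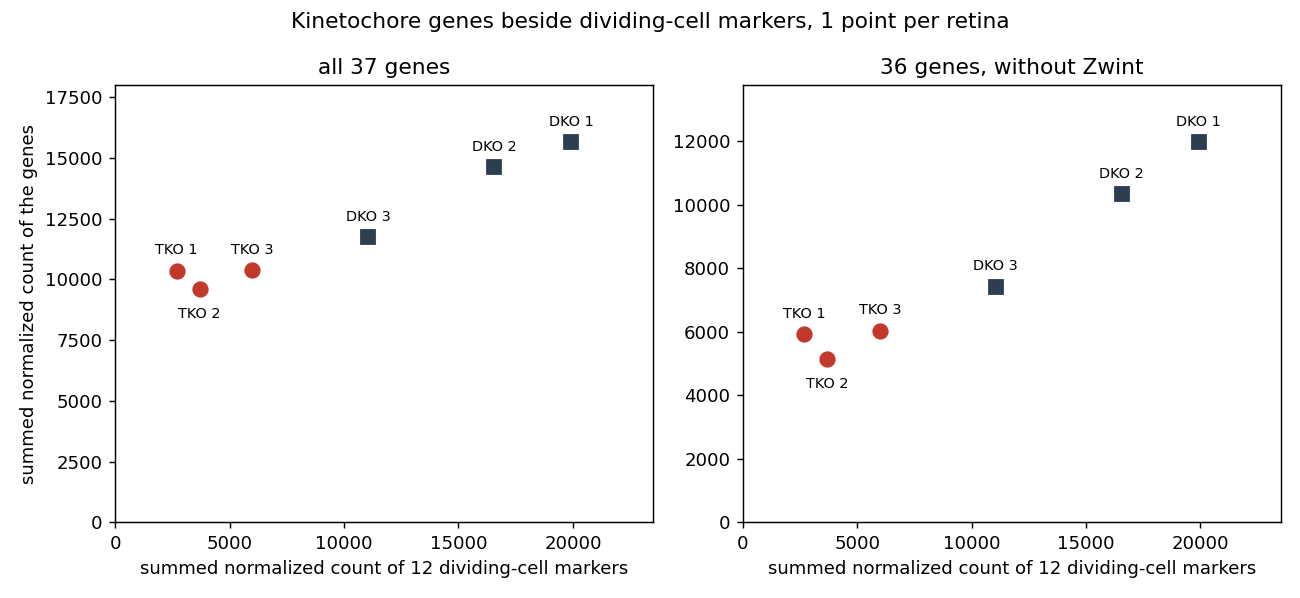
Summed normalized count of all 37 genes (left) and of the 36 genes other than Zwint (right) against the summed normalized count of the 12 dividing-cell markers, with 1 point per retina. The markers run from 2680 to 19928 over the 6 retinae, and the sum of the 37 genes runs from 9591 to 15658, with every TKO retina below every DKO retina on both axes.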

How the data were processed

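RNA sequencing counts of 6 retinae, 3 TKO and 3 DKO, were grouped by genotype label. The deposited values are raw counts per gene symbol, 1 column per retina. The paper's methods name STAR and HTSeq on GRCm38 with a limited number of alignments per read, whereas the submitters' processing notes name TopHat2, featureCounts and DESeq2, so the aligner and counter behind the deposited counts are uncertain. The study gives 3 retinae per genotype without saying that each came from its own animal, and both sexes occur in each genotype, so at least 2 animals gave each. If any share an animal, p-values measure in part technical spread. Counts of replicates were further apart than sampling noise allows (chi-square over its degrees of freedom 8.97 to 26.6).

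A summed count of 10 or more was required. Differential expression was tested in R 4.3.3 by edgeR 4.0.16, with TMM scaling, quasi-likelihood F tests and Benjamini-Hochberg adjustment over 16904 genes, and were checked on simulated data. The mean normalized count in the call used DESeq2 size factors. Standard errors were derived from F, as the size of the log2 fold change over the root of F. A pseudocount of 1 was used for log2 levels. TPM used exon-union lengths from GENCODE M21 for 22750 of 24062 symbols (94.5%). The precision of a value is limited by its count, and 0 counts would allow up to 3.

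The 37 genes and the other lists were chosen with earlier results of these data known. Values per retina were given, by rule, for the gene of each group with the largest mean count and the lowest and highest log2 fold change, for uncalled genes whose groups overlap, and for the extremes of the other lists. One gene that the rule names is not reported here. Cenpa, Ndc80 and Spc24 were added after their values were seen. Marker ratios without Zwint, or split by the calls, were added after seeing the data. The split is a description only, since its sets were chosen by calls on the same counts. Alternatives were DESeq2 1.42.0, other scalings and filters, robust dispersion, a replicate block, a sex term, other thresholds and each retina left out.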

Additional observations from a re-analysis of the deposited data

How the results depend on the processing

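The counts of kinetochore genes called lower ran from 20 to 24 with DESeq2, other scalings and filters, robust dispersion and the sex term. With each retina left out in turn the ranges were 9 to 24 called and 9 to 30 passing lower among the 37 genes, 312 to 1024 lower and 121 to 476 higher calls over all genes, 2 to 4 other kinetochore genes, 2 to 6 checkpoint genes and a median of -1.66 to -1.32. At an adjusted p of at most 0.01, 8 of the 37 genes, 2 checkpoint genes and 292 lower and 129 higher genes of all were called, and with no minimum fold change 7 other kinetochore genes, 1496 lower and 1225 higher. Total counts alone moved the median of the 37 genes to -1.62 and of all genes from -0.011 to -0.17.

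Replicate numbers did not pair the retinae (correlations of deviations of 0.068, -0.045 and -0.18). With the replicate block 0 of the 37 genes were called or passed lower, 0 other kinetochore and 0 checkpoint genes were called, and 75 genes of all were lower and 15 higher. With the block the median log2 fold change of the 37 genes was -1.44, and the lowest edgeR adjusted p among them was 0.0505 (Ska1). The cause of the lost calls was not tested.

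Signs turned in genes near 0. Spc25 was -0.033 with upper-quartile scaling, -0.17 with total counts, -9.95e-06 with the replicate block and -0.26 to 0.18 with each retina left out. Zwint was -0.053 and Rbl1 -0.036 with total counts, and with each retina left out Rbl1 ran from -0.15 to 0.36 and Zw10 from -0.15 to 0.037. The difference in the log2 ratio of the 22 called genes, a set chosen by these calls, to the dividing-cell markers turned from -0.086 to 0.49 with G2 and M markers alone. Over the 37 genes and all alternatives 441 results kept direction and side of the threshold, 102 lost the pass, 4 gained it and 8 turned.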
